A study of Mus musculus with 6 samples.

Results

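The 9 proximal insulin signalling genes are the insulin receptor (Insr), its adaptors Irs1 and Irs2, the phosphoinositide 3-kinase (PI3K) regulatory subunit Pik3r1, the kinases Akt1 and Akt2, and the kinase Gsk3b and transcription factors Foxo1 and Foxo3 that AKT acts on. They were taken by gene name from the 54532 genes of a liver RNA-seq count table, and all 9 were among the 13377 genes with enough counts to be tested. The livers came from 6 male C57BL/6J mice that were made insulin resistant (IR) with a high-fat diet (HFD) fed for 6 weeks from the age of 8 weeks. All 6 mice were fasted for 16 h. In the IR insulin group, 3 mice then received insulin intraperitoneally at 0.75 units per kg body weight, and in the IR vehicle group 3 mice received bovine serum albumin (BSA), the carrier of the insulin. Livers were taken 6 h after the injection, and each library came from 1 mouse. The comparison asks whether insulin alters the transcript levels of its own signalling chain in IR liver. No chow-fed mice are among the 6 libraries, and phosphorylation, by which most of these proteins are switched on and off, was not measured in them.

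Insulin binding switches on the kinase of the receptor, which phosphorylates the IRS adaptors. These recruit PI3K, whose lipid product brings AKT to the membrane to be activated. In hepatocytes AKT then phosphorylates GSK3B, which relieves a brake on glycogen synthesis, and FOXO1 and FOXO3, which leave the nucleus. Nuclear FOXO1 drives genes of fasting such as G6pc, the last enzyme of glucose release, and Igfbp1, a secreted binding protein for insulin-like growth factors. Irs2 is itself a FOXO target in liver and rises on fasting, while Irs1 is transcribed more steadily.

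The following promoter stretches are those of Irs2 and its fellow FOXO targets Igfbp1 and G6pc, the genes of the FOXO target list in which a motif match was found. Pck1 and Klf15, given beside them in the results, held no match and are not shown. Each stretch is the RefSeq sequence before the annotated start (GRCm38.p6), 5′ to 3′ on the strand of the gene, without bases that GENCODE places inside the gene. Capitals mark the insulin response sequence CAAAACA or its reverse complement TGTTTTG. Irs2 is given from chr8:11008930-11009179 on the minus strand, Igfbp1 from chr11:7197537-7197781 on the plus strand and G6pc from chr11:101367466-101367560 on the plus strand.
Irs2: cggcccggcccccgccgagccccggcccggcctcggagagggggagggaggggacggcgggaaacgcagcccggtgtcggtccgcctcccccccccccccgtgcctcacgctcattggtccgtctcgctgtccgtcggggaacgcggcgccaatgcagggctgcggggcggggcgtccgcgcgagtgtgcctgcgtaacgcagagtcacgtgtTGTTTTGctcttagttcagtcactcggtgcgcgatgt
Igfbp1: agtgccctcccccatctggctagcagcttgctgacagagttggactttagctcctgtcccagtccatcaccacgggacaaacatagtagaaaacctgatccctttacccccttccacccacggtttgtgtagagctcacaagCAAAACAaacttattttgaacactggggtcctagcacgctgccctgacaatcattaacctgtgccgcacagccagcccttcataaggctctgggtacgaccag
G6pc: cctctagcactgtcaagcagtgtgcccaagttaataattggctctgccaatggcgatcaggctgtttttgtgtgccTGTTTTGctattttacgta
The match lay 37 to 31 bases before the RefSeq start of Irs2, 108 to 102 before that of Igfbp1 and 174 to 168 before that of G6pc. RefSeq places the start of Irs2 upstream of, and that of G6pc downstream of, the start in GENCODE. CAAAACA on either strand was found in 5.56% of the 32851 windows of 250 bases searched, and the forkhead element GTAAACA, which shares its last letters with it but cannot match the same bases, in 3.17%. Either motif was found in 8.51%. Among the 9 genes, 8 had a window and 3 held a match: Irs2, Irs1 (CAAAACA, 111 to 105 and 32 to 26 bases before the start) and Akt1 (GTAAACA, 161 to 155 before it). Of the other 14 FOXO target genes listed, 11 had a window and 2 held a match, Igfbp1 and G6pc. Some genes had several windows. By window, the unit of the shares above, 3 of 13 held a match for the 9 genes and 2 of 13 for the other list. These are matches of letters and were not tested for binding.

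Library totals ran from 18449986 to 21827619 counts. Vehicle replicate 2 stood apart from the other 5 libraries: 16470 genes had a count in it, against 18389 to 18874, and its deviation from the others fell with the GC content of the transcript (Pearson's r across 13367 genes, which are not independent, −0.629, against −0.108 to 0.271 for the others). The 8 hepatocyte markers all passed the filter on low counts, with a summed level of 78110 to 175700 CPM (read counts scaled by library size and TMM) in the vehicle group and 66010 to 81570 in the insulin group. Vehicle replicate 2 was highest for the hepatocyte list, and for the 4 erythroid markers (1234 CPM, against 406 and 604 in the other vehicle libraries and 299 to 460 with insulin). It also had the highest sums of 4 neutrophil markers, 4 B cell markers and 5 stellate cell markers, and the lowest of 6 macrophage markers. Its sum of 5 adipocyte markers, of which 1 passed the filter on low counts, was also the lowest (11.8 CPM, against 105 and 21.6 in vehicle replicates 1 and 3 and 74.2 to 127 with insulin). Of the pancreatic markers, Ins1, Ins2 and Prss2 had no count in any library, and neither had Amy2b, which GENCODE lists as a pseudogene. Lep of fat and Acta1 and Tnnt3 of muscle had none either. The part of cell content in the values below was not tested, and in bulk liver fewer cells of a type and less RNA per cell cannot be told apart.

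None of the 9 genes passed the test between the groups. With the quasi-likelihood test of edgeR, 0 of 9 had a Benjamini-Hochberg adjusted p under 0.05, as had 0% of all 13377 genes, and 0.852 was the lowest adjusted p of any gene. The count was again 0 of 9 at an unadjusted p under 0.05, beside 383 genes, or 2.86%, of all tested. DESeq2 and limma-voom also gave 0 of 9 at either threshold. The vehicle and insulin values overlapped for every one of the 9, where 12.3% of all genes tested had groups that did not overlap. The log2 fold change of insulin over vehicle was above 0 for Akt1 and Akt2 and below 0 for the other 7, with a median of −0.24 against −0.02 over all genes, of which 48.6% lay above 0. That median was −0.03 without vehicle replicate 2, −0.09 without vehicle replicate 3 and −0.15 without insulin replicate 1, and the number of the 9 above 0 ran from 0 with an offset for GC content to 4 with limma-voom and sample quality weights or without vehicle replicate 3. The plot of the 9 genes by library shows that the spread lay mostly in the vehicle group. The coefficient of variation was larger with vehicle for 7 of the 9, as it was for 85.1% of all genes tested.

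**Figure D1:**
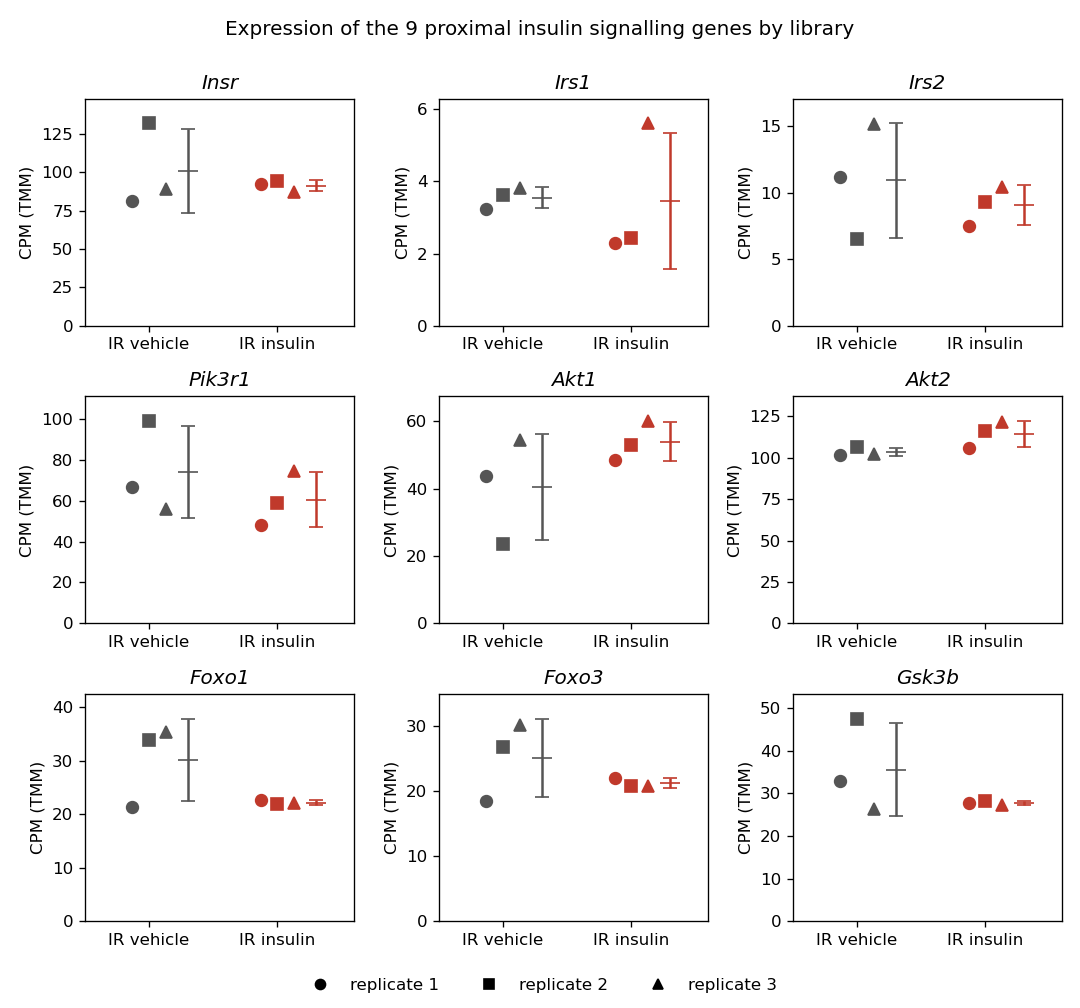
Normalized level (CPM, TMM-scaled, linear axis from 0) of each of the 9 genes in the 3 IR vehicle libraries (grey) and the 3 IR insulin libraries (red), with marker shapes for the replicate number and the mean ± SD beside the points. The ranges of the groups overlap in every panel, and Foxo1, Foxo3, Gsk3b and Insr are tightly grouped with insulin but spread with vehicle.

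Insr, the receptor tyrosine kinase at the head of the chain, is a gene on chr8:3122061-3279617 (minus strand, GRCm38). Its level in vehicle replicates 1, 2 and 3 was 81.3, 132 and 89.0 CPM, and in the insulin replicates 92.3, 94.1 and 87.2 CPM. A single library, vehicle replicate 2, was high, and the other 5 lay close together. Group means were 101 ± 27.5 (SD, n = 3) and 91.2 ± 3.57 CPM. The log2 fold change was −0.15 ± 0.25 (SE; 95% interval −0.72 to 0.43; edgeR adjusted p = 0.884), and without vehicle replicate 2 it was 0.10. Igf1r, the receptor for insulin-like growth factor and the nearest relative of Insr, was at 1.43 to 2.27 CPM over the 6 libraries, with a log2 fold change of −0.10 ± 0.36. Per kb of transcript, Insr exceeded Igf1r by 59.5 to 74.4 times in the 6 libraries, and this ratio did not differ detectably between the groups (exact permutation test, two-sided, p = 0.9, with 0.1 the smallest p that 3 against 3 allows). The third receptor of the family, Insrr, had too few counts to be tested.

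Irs1 and Irs2 are the docking proteins that carry the signal from the receptor to PI3K. Irs1 (chr1:82233101-82291416, minus strand) was at 3.23, 3.62 and 3.82 CPM in the vehicle libraries and 2.30, 2.42 and 5.63 CPM in the insulin libraries. Here the insulin group held both the lowest libraries and the highest, and 59 to 80 counts in the vehicle libraries against 51 to 122 with insulin stood behind these values. Its log2 fold change was −0.04 ± 0.41 (95% interval −1.0 to 0.91; edgeR adjusted p = 0.979). Leaving out insulin replicate 3 moved it to −0.58 (unadjusted p = 0.167), and leaving out insulin replicate 1 moved it to 0.18.

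Irs2 (chr8:10984681-11008458, minus strand) was at 11.2, 6.51 and 15.1 CPM in the vehicle libraries and 7.47, 9.27 and 10.4 CPM in the insulin libraries. Vehicle replicates 3 and 1 were the highest of all 6 and vehicle replicate 2 the lowest. Group means were 10.9 ± 4.31 and 9.05 ± 1.49 CPM (n = 3 each), and the log2 fold change was −0.27 ± 0.34 (95% interval −1.06 to 0.51; edgeR adjusted p = 0.859). Its value turned on single vehicle libraries. Without vehicle replicate 2 the log2 fold change was −0.53 with an unadjusted p of 0.046, in a fit in which 3.74% of all genes passed the threshold, and without vehicle replicate 3 it was 0.03 (unadjusted p = 0.920). A fit that removed the dependence of each library on GC content (the GC offset) gave −0.60 and an unadjusted p of 0.023, in which 3.55% of all genes passed the threshold. The smallest adjusted p that Irs2 reached in any alternative was 0.814. Of the other adaptors of the family, Irs4 had no count in any library and Irs3 too few to be tested.

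Irs2 exceeded Irs1 per kb of transcript in each library, by 5.0, 2.60 and 5.73 times with vehicle and 4.71, 5.53 and 2.68 times with insulin. The lowest ratio of each group came from a different side: vehicle replicate 2 had the least Irs2 and insulin replicate 3 the most Irs1. The log2 ratio differed by −0.03 between the groups (exact permutation test, two-sided, p = 0.8).

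Pik3r1 encodes the regulatory subunit that holds the PI3K catalytic subunit at the IRS proteins (chr13:101680563-101768217, minus strand). It was at 66.8, 99.0 and 55.7 CPM in the vehicle libraries and 48.0, 58.8 and 74.5 CPM in the insulin libraries. Vehicle replicate 2 was again the highest, and the remaining 5 values of the groups interleaved. The log2 fold change was −0.29 ± 0.29 (95% interval −0.96 to 0.38; edgeR adjusted p = 0.853), and it was −0.02 without vehicle replicate 2. Pik3r2, the second regulatory subunit, was at 19.9, 7.00 and 21 with vehicle and 22.8, 22.7 and 24.5 CPM with insulin, so that its groups did not overlap, but its log2 fold change of 0.54 ± 0.39 had an unadjusted p of 0.202. The fold change of Pik3r2 was 0.19 without vehicle replicate 2 and 0.04 with the GC offset. Pik3r3 ranged from 1.19 to 3.93 CPM. Per kb, Pik3r1 exceeded Pik3r2 by 1.5, 6.30 and 1.18 times with vehicle and by 1.15 and 1.36 times in insulin replicates 2 and 3, while in insulin replicate 1 the ratio was 0.937. The 6.30 of vehicle replicate 2 combined its highest Pik3r1 with its lowest Pik3r2, and the group difference was not detectable (exact permutation test, two-sided, p = 0.2).

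Akt1 and Akt2 are the serine/threonine kinases that pass the signal on, and Akt2 is the form best known for glucose control in liver. Akt1 (chr12:112653821-112674884, minus strand) was at 43.8, 23.5 and 54.5 with vehicle and 48.7, 53.1 and 60.2 CPM with insulin. A single low library, vehicle replicate 2, pulled the vehicle mean to 40.6 ± 15.8 CPM, against 54.0 ± 5.82 CPM in the insulin libraries. The log2 fold change was 0.41 ± 0.32 (95% interval −0.33 to 1.15; edgeR adjusted p = 0.852). With the GC offset it was −0.09. Dropping vehicle replicate 2 gave 0.14, and dropping vehicle replicate 3 gave 0.68 (unadjusted p = 0.063).

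Akt2 (chr7:27591552-27640826, plus strand) was the steadiest of the 9 across libraries, at 102, 107 and 102 with vehicle and 106, 116 and 122 CPM with insulin. Its highest library exceeded its lowest by 1.19 times, and of all the libraries insulin replicates 2 and 3 were the highest. The groups missed separation by a small margin: insulin replicate 1 lay just under vehicle replicate 2. The log2 fold change was 0.14 ± 0.20 (95% interval −0.31 to 0.60; edgeR adjusted p = 0.869). The groups did not overlap when counts were scaled by raw library totals or by the upper quartile in place of TMM, as for 14.4% and 12.5% of all genes under these scalings, and the log2 fold change under upper-quartile scaling was 0.19 (unadjusted p = 0.346). With the GC offset it was −0.25 (unadjusted p = 0.381).

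Gsk3b, the kinase that AKT silences to release glycogen synthase (chr16:38089001-38246084, plus strand), was at 32.8, 47.5 and 26.3 with vehicle and 27.8, 28.2 and 27.2 CPM in the insulin libraries. The insulin libraries lay within 1.04 times of each other, between the lowest vehicle library and the other two. Insulin over vehicle, the log2 fold change was −0.36 ± 0.26 (95% interval −0.96 to 0.25; edgeR adjusted p = 0.852). Dropping vehicle replicate 2 gave −0.09, and dropping vehicle replicate 3 gave −0.53 (unadjusted p = 0.059). Gsk3a, its paralog with the same substrate, was at 27.2, 13.1 and 32.5 with vehicle and 28.1, 31.4 and 30.1 CPM with insulin. Gsk3a was thus lowest in the library in which Gsk3b was highest, and their ratio per kb was 0.985 there against 0.220 to 0.328 in the other 5 libraries (exact permutation test of the groups, two-sided, p = 0.4).

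Foxo1, the transcription factor through which insulin restrains glucose output, is on chr3:52268336-52353221 (plus strand) and had the smallest p of the 9. It was at 21.4, 34.0 and 35.3 with vehicle and 22.7, 21.9 and 22.1 CPM with insulin. Vehicle replicates 2 and 3 were above every insulin library, and vehicle replicate 1 was below them all. Means were 30.2 ± 7.70 and 22.2 ± 0.410 CPM, and the log2 fold change was −0.45 ± 0.25 (95% interval −1.03 to 0.13; unadjusted p = 0.114, edgeR adjusted p = 0.852). Without vehicle replicate 1 it was −0.64 with an unadjusted p of 0.023, in a fit in which 9.81% of all genes passed that threshold.

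Foxo3 (chr10:42181841-42276755, minus strand), a relative that shares many FOXO1 targets, ran beside it at 18.4, 26.7 and 30.1 with vehicle and 22.1, 20.7 and 20.7 CPM with insulin. Again the insulin libraries sat between vehicle replicate 1 and vehicle replicates 2 and 3. Its log2 fold change was −0.24 ± 0.24 (95% interval −0.81 to 0.32; edgeR adjusted p = 0.853). Foxo4, the third FOXO gene tested, was at 17.5, 7.31 and 20.6 with vehicle and 18.5, 21.4 and 22.2 CPM with insulin (log2 fold change 0.45 ± 0.37, and 0.13 without vehicle replicate 2), and Foxo6 had too few counts. The ratio of Foxo1 to Foxo3 per kb was 0.918, 1.01 and 0.927 with vehicle and 0.811, 0.833 and 0.841 with insulin. These did not overlap and differed by −0.20 on the log2 scale, but the exact two-sided permutation p of 0.1 is the smallest that this design allows, and adjusted over the 6 ratios computed it was 0.6.

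**Figure D2:**
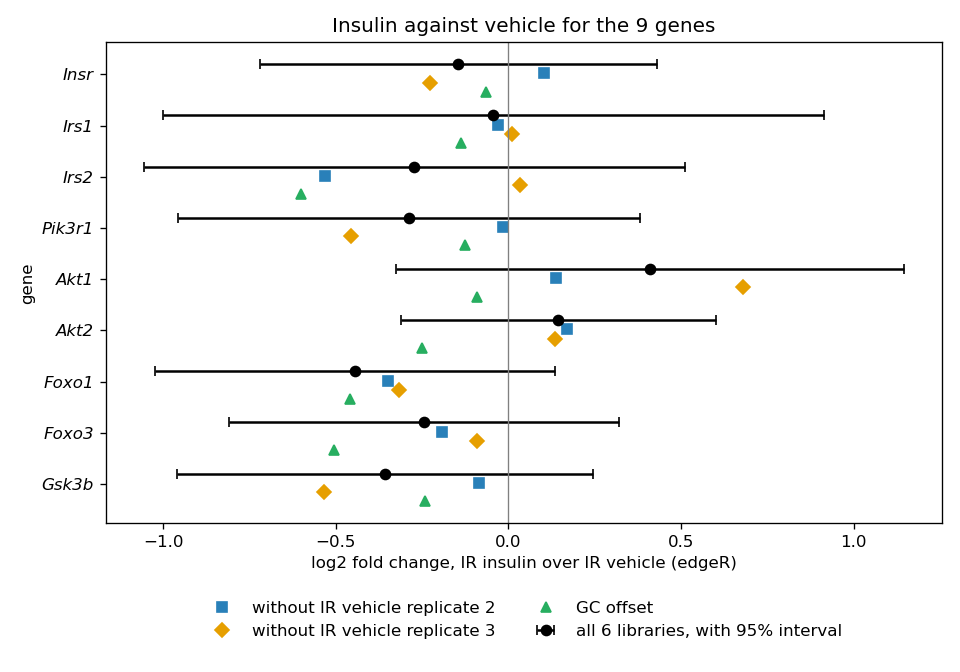
Log2 fold change of IR insulin over IR vehicle for the 9 genes from edgeR: all 6 libraries with the 95% interval (black), without vehicle replicate 2 (blue squares), without vehicle replicate 3 (orange diamonds) and with the GC offset (green triangles). Every interval spans 0, and Irs2 moves between −0.60 and 0.03 with the setting.

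Without vehicle replicate 2 the log2 fold changes of the genes not yet given so were −0.03 for Irs1, 0.17 for Akt2, −0.35 for Foxo1 and −0.19 for Foxo3. The spread lay mostly among the vehicle mice. The coefficient of variation was larger with vehicle than with insulin for 7 of the 9 genes, as it was for 85.1% of all genes tested, and the exceptions were Irs1 and Akt2. It was 25.5% against 1.85% for Foxo1, 30.6% against 1.76% for Gsk3b and 27.3% against 3.92% for Insr. Both the highest and the lowest library were vehicle libraries for 5 genes (Insr, Irs2, Foxo1, Foxo3 and Gsk3b), where the share of all genes was 38.4%. Vehicle replicate 2 was highest for Insr, Pik3r1 and Gsk3b (35.8% of all genes) and lowest for Irs2 and Akt1 (37.4%). Vehicle replicate 3 was highest for Irs2, Foxo1 and Foxo3 (23.4%).

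In vehicle replicate 2 the order of the 9 genes followed their base composition closely. The deviation of each gene there, its log2 CPM less the median over the remaining 5 libraries, was 0.75 for Pik3r1 (44.9% GC), 0.77 for Gsk3b (46.1%), 0.57 for Insr (46.8%) and 0.62 for Foxo1 (48.5%). It was 0.16 for Irs1 (50.3%), 0.36 for Foxo3 (53.2%) and 0.01 for Akt2 (55.2%), and −0.67 for Irs2 (56.6%) and −1.18 for Akt1 (59.7%). As a description over the 9 genes, which share this library, Pearson's r was −0.927 and Spearman's rho −0.950, beside −0.732 and −0.815 over the 72 genes of the pathway lists that were tested. Each of the 9 lay above the median of all genes of like GC content, by the most for Foxo3, whose class median was −0.52, and Akt2, whose class median was −0.86. Akt2 was thus level with the other libraries in CPM and above its GC class.

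**Figure D3:**
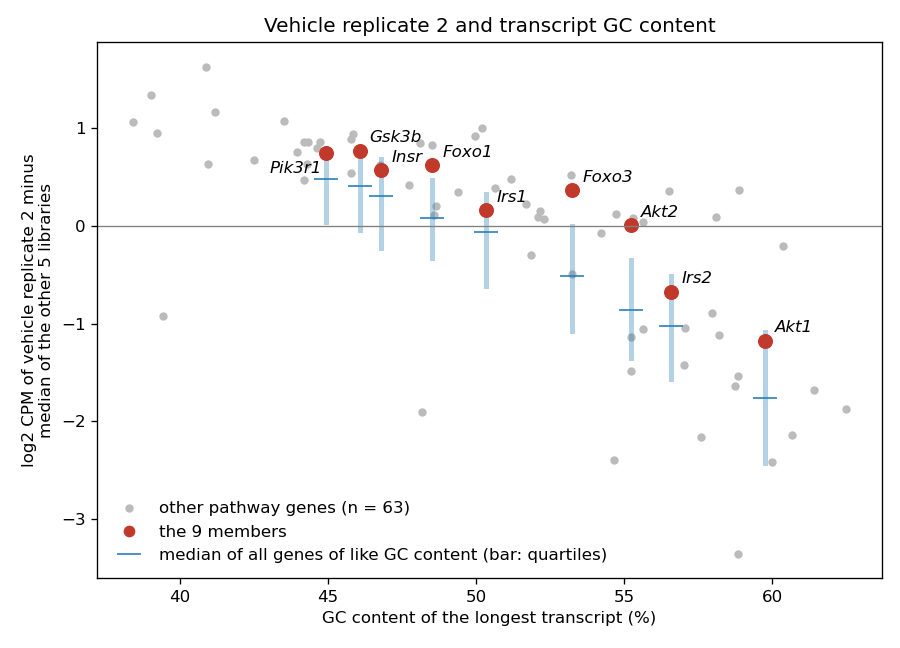
Deviation of vehicle replicate 2 (log2 CPM less the median over the remaining 5 libraries) against the GC content of the longest transcript, for the 9 genes (red, named) and the 63 other pathway genes tested (grey). Blue dashes and bars are the median and quartiles of all genes of like GC content, and the 9 genes run from 0.77 for Gsk3b down to −1.18 for Akt1, each above its blue dash.

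Levels of different genes were set against each other after division by transcript length. This does not adjust for GC content, for the isoform expressed or for reads lost at exon junctions, so the order is approximate. In CPM per kb of the longest transcript, as the mean over 6 libraries with the range, Akt2 was highest at 24.0 (22.4 to 26.7). Next was Akt1 at 17.6 (8.72 to 22.4), its highest value barely under the lowest of Akt2 (22.38 against 22.41). Insr at 10.3 (8.69 to 14.2) and Pik3r1 at 9.44 (6.74 to 13.9) followed, and neither Akt1 and Insr nor Insr and Pik3r1 were separated by their ranges. Gsk3b at 3.81 (3.17 to 5.72), Foxo3 at 3.38 (2.69 to 4.40) and Foxo1 at 3.02 (2.47 to 4.08) formed an overlapping run below Pik3r1. Irs2 at 1.58 (1.03 to 2.39) lay under all of these, and Irs1 was the lowest at 0.383 (0.251 to 0.615). Among the paralogs on the same per-kb scale, Gsk3a averaged 12.0, Pik3r2 6.21, Foxo4 5.67, Pik3r3 0.479 and Igf1r 0.157. Gsk3a and Foxo4 thus averaged more than Gsk3b, Foxo1 and Foxo3 on that scale. In vehicle replicate 2, however, Gsk3a was at 5.81 and Foxo4 at 2.31 CPM per kb, the lowest of the 6 libraries for each.

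**Figure D4:**
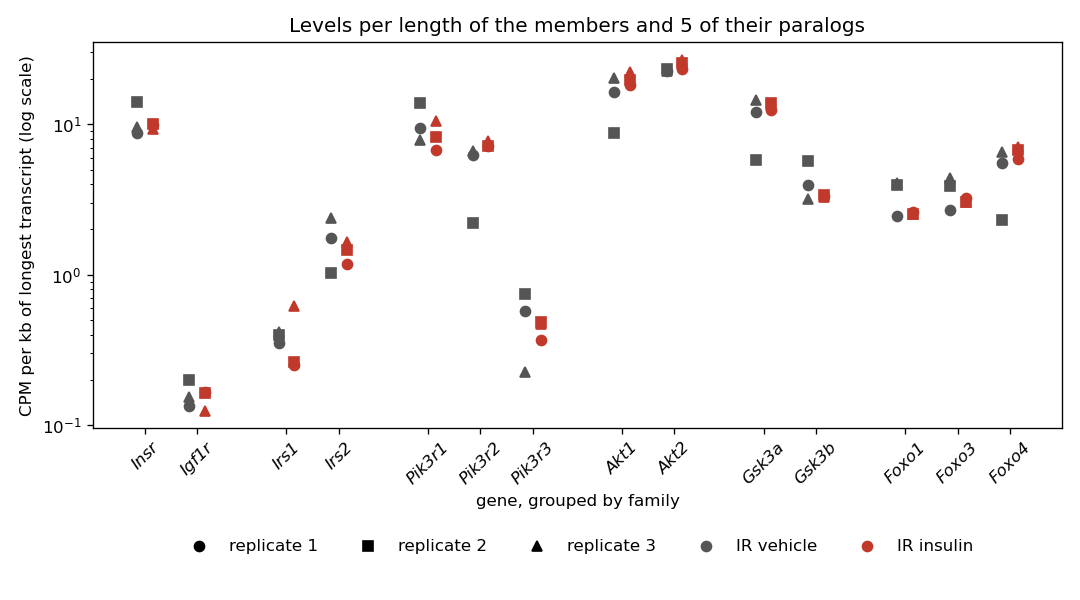
Level per kb of the longest transcript (CPM per kb, log axis) of the 9 genes and 5 paralogs, grouped by family, with 1 point per library (grey for IR vehicle, red for IR insulin, shapes for the replicate number). Akt2 is highest and Igf1r lowest, and vehicle replicate 2 (grey square) is the outlying point for Akt1, Pik3r2, Gsk3a and Foxo4.

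The rest of the pathway was read from lists of its arms. Of 67 other genes listed, 63 were tested, and 0 of these passed in the higher direction and 2 in the lower at an unadjusted p under 0.05, where 1% and 1.86% of all genes did. The median log2 fold change of the 63 was −0.07, with 27 above 0 and 36 below, and without vehicle replicate 2 it was 0.06, with 37 above and 26 below. None had an adjusted p under 0.05.

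Of 12 genes of PI3K and AKT activation, 5 had a fold change above 0 and 7 below, and none passed at an unadjusted p under 0.05. The smallest p were those of Rictor, the scaffold of the mTOR complex that phosphorylates AKT (14 with vehicle and 10.8 CPM with insulin, log2 fold change −0.37 ± 0.26, unadjusted p = 0.198), of Pik3r2, and of Pik3ca, the catalytic subunit bound by Pik3r1 (−0.45 ± 0.35, unadjusted p = 0.239). Rictor was highest in vehicle replicate 2, at 18.5 CPM against 9.83 to 11.9 in the others. Pik3ca was at 66.5 CPM in vehicle replicate 2 and 25.8 to 33.7 in the others, and its log2 fold change was 0.05 without that library. The split of the list turned on the same library, and without vehicle replicate 2 it was 10 above 0 and 2 below, with a median of 0.13 in place of −0.14. Among 16 brakes on the pathway, 8 lay above 0 and 8 below, again with none past that threshold. Inppl1, a lipid phosphatase that removes the PI3K product, had 0.66 ± 0.37 (unadjusted p = 0.111), and Enpp1, which binds and inhibits the receptor, −0.54 ± 0.31 (unadjusted p = 0.117). Over the 14 alternatives these ran from 0.30 to 0.94 and from −0.80 to −0.07. Inppl1 was lowest in vehicle replicate 2 (7.74 CPM). Enpp1 was highest in vehicle replicate 2 (28.2 CPM) but lowest in vehicle replicate 1 (13.4 CPM).

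The mTORC1 arm (12 genes, 5 above 0 and 7 below) and the Ras and MAPK arm (12 genes, 5 above and 7 below) had no gene at an unadjusted p under 0.05. Without vehicle replicate 2 the split of the Ras and MAPK arm was 8 above and 4 below. In the first, the S6 kinase gene Rps6kb1 had a log2 fold change of −0.48 ± 0.29, the receptor-binding adaptor Grb10 −0.54 ± 0.35 and the translation repressor Eif4ebp1 0.61 ± 0.44. Over the 14 alternatives these ran from −0.65 to −0.11, −0.70 to −0.24 and 0.23 to 0.98. Vehicle replicate 2 was highest for Grb10 and for Rps6kb1 (60.8 CPM, against 34.2 and 31.4 in vehicle replicates 1 and 3). It was lowest for Eif4ebp1 (13.4 CPM, against 40.5 and 50.4). In the second, the adaptor Shc1 had 0.31 ± 0.21 (0.08 to 0.42 over the alternatives). Groups did not overlap for Rps6kb1 and Shc1, a pattern that 12.3% of all genes tested had.

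Among 11 tested substrates of AKT and genes of insulin handling, 4 lay above 0 and 7 below, with a median of −0.33 (−0.17 without vehicle replicate 2). The 2 that passed at an unadjusted p under 0.05 were both lower with insulin, where 1.86% of all genes tested passed in that direction. Tbc1d4, an AKT substrate that restrains glucose transporter traffic, was at 4.23, 5.77 and 3.15 with vehicle and 2.43, 1.86 and 3.0 CPM with insulin (log2 fold change −0.85 ± 0.36, unadjusted p = 0.0465, edgeR adjusted p = 0.852). Gys2, the liver glycogen synthase held inactive by GSK3, was at 122, 232 and 276 with vehicle and 129, 133 and 115 CPM with insulin (−0.74 ± 0.32, unadjusted p = 0.0484). For Tbc1d4 the groups did not overlap, while vehicle replicate 1 of Gys2 lay among the insulin values. Neither passed without vehicle replicate 2 (unadjusted p = 0.104 and unadjusted p = 0.077), and of the fits that left out 1 library, Tbc1d4 passed in that without vehicle replicate 3 and Gys2 in that without vehicle replicate 1. Ceacam1, which aids hepatic insulin clearance, was at 57.2, 73.9 and 95.9 with vehicle and 54.8, 55.1 and 54.8 CPM with insulin (−0.46 ± 0.24, unadjusted p = 0.094). Every vehicle library was above every insulin library, by a narrow margin for vehicle replicate 1. Groups without overlap, as for Tbc1d4 and Ceacam1, were found for 12.3% of all genes tested.

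The FOXO target genes stand at the end of the chain, but the activity of the FOXO proteins was not measured in these libraries. Of 16 tested, Irs2 and Insr included, 3 lay above 0 and 13 below with insulin, with a median log2 fold change of −0.42 against −0.02 over all genes, and 0 passed at an unadjusted p under 0.05. G6pc was at 122, 104 and 365 with vehicle and 61.9, 80.7 and 126 CPM with insulin (−1.14 ± 0.52, unadjusted p = 0.058). Klf15, a factor that promotes amino acid breakdown for gluconeogenesis, was at 58.1, 48.3 and 234 with vehicle and 45.9, 53.1 and 66.0 CPM with insulin (−1.04 ± 0.58, unadjusted p = 0.110). Sesn3, a regulator that raises AKT activity, was at 9.89, 29.3 and 13.2 with vehicle and 9.82, 9.96 and 11.2 CPM with insulin (−0.76 ± 0.40, unadjusted p = 0.096). Vehicle replicate 3 was the high library for G6pc and Klf15, and vehicle replicate 2 for Sesn3.

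The values of the list turned on the same vehicle libraries. Without vehicle replicate 3 the median of the 16 genes was −0.09, with 6 above 0, and G6pc was at −0.34 and Klf15 at 0.05. Without vehicle replicate 2 the median was −0.44, and 4 genes passed at an unadjusted p under 0.05, all lower with insulin: Igfbp1, G6pc, Irs2 and Klf15. In that fit 3.74% of all genes passed. Members of the list that passed numbered 1 in DESeq2 (2.38% of all genes) and with voom weights (1.59%), 2 without the low-count filter (3.22%), 2 with the replicate block (2.4%), 3 with the GC offset (3.55%) and 4 with the offset and the block (2.51%). They numbered 2 without vehicle replicate 1 (9.81%), 2 without insulin replicate 3 (0.875%) and 0 in the other 5 alternatives, and each was lower with insulin. G6pc passed in 8 of the 14 alternatives, Klf15 in 4 and Pck1, the enzyme that commits carbon to gluconeogenesis, in 3, and the smallest adjusted p that G6pc reached was 0.506. Igfbp1, named here after its values were seen, was at 36.5, 3.99 and 266 with vehicle and 14.1, 11.6 and 60.2 CPM with insulin. Vehicle replicates 2 and 3 held its lowest and its highest value, so that its log2 fold change was −1.84 ± 1.26 with all libraries, −2.40 without vehicle replicate 2 and 0.50 without vehicle replicate 3. Irs2 had that same order of vehicle libraries on a smaller scale. In vehicle replicate 3 the 4 neutrophil markers summed to 3.43 CPM, against 27.3 to 72.9 in the other libraries, and the 5 sinusoidal endothelial markers to 231 CPM, against 146 to 167, and the part of either in these values was not tested.

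**Figure D5:**
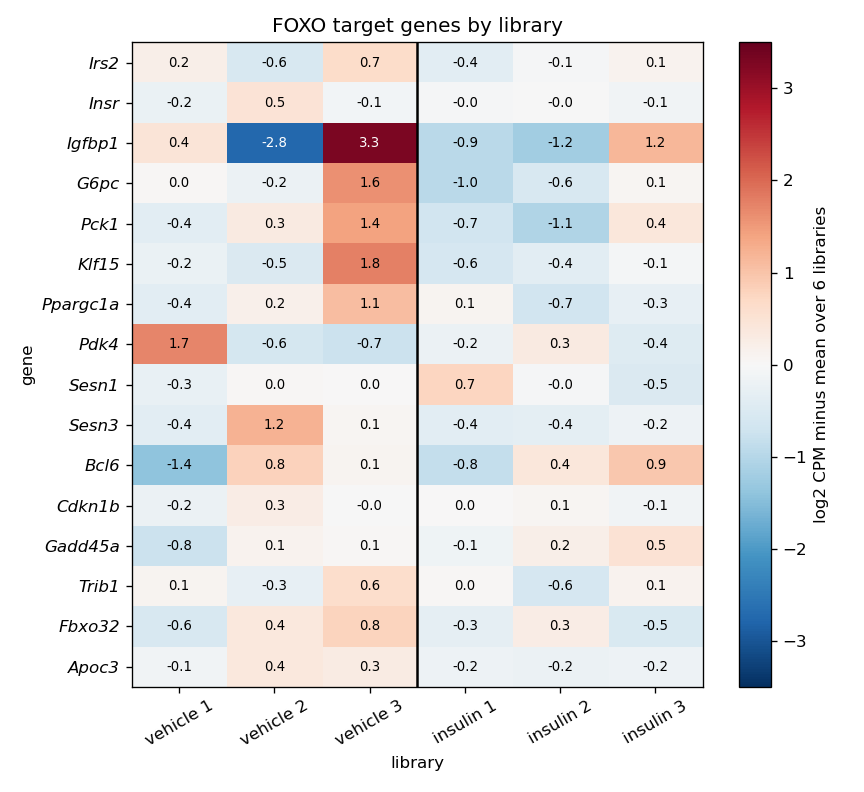
Log2 CPM minus the mean of the 6 libraries for the 16 FOXO target genes (rows), with the 3 vehicle libraries on the left of the black line and the 3 insulin libraries on the right. Igfbp1, G6pc, Pck1, Klf15 and Irs2 are highest in vehicle replicate 3, and Igfbp1 and Irs2 are lowest in vehicle replicate 2.

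Genes that insulin is known to induce in liver were read in the same libraries. Of 8 listed, 6 were tested, 5 of them above 0, with a median of 0.28. Without insulin replicate 2 the median was −0.03, with 2 above 0 and 4 below. It was 0.12 without vehicle replicate 2, 0.57 without vehicle replicate 1 and 0.44 without insulin replicate 3, and with voom weights (0.03) and with the GC offset (0.08) 3 lay above 0 and 3 below. Fasn, the fatty acid synthase, was at 78.1, 39.6 and 70.2 with vehicle and 102, 113 and 99.3 CPM with insulin, and its groups did not overlap (log2 fold change 0.74 ± 0.29, unadjusted p = 0.033, edgeR adjusted p = 0.852). Without vehicle replicate 2 Fasn had 0.50 (unadjusted p = 0.013), and with the GC offset 0.32 (unadjusted p = 0.135). It also missed the threshold when any 1 of the insulin libraries was left out. The 5 adipocyte markers, of which 1 passed the low-count filter and Lep had no count, summed to 105, 11.8 and 21.6 CPM in the vehicle libraries, while the insulin libraries had 127, 86.8 and 74.2 CPM. Vehicle replicates 2 and 3 thus had the lowest sums, as they had the lowest Fasn. As 1 marker passed the filter, these sums rest mainly on 1 gene and do not stand for the list as a whole. The part of fat tissue in the values was not tested. Onecut1, a liver transcription factor, had 0.60 ± 0.65 and did not pass (unadjusted p = 0.387).

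Some pairs of the 9 genes varied alike across libraries. Foxo1 and Foxo3 had a Pearson's r of 0.955 over the 6 libraries (Spearman's rho 0.943) while Akt1 and Gsk3b ran opposite, with −0.980 (rho −0.886). These are descriptions over libraries that share depth and composition. In vehicle replicate 2, which deviated by GC content, Akt1 (23.5 CPM) and Irs2 (6.51 CPM) were at their lowest. Gsk3b (47.5 CPM) and Insr (132 CPM) were at their highest there. How far the correlations of this paragraph rest on that library was not tested. Of 10662 genes that averaged 50 counts or more, those most like Irs2 over the 6 libraries were Med8 (r 0.985), Pmm2 (0.984) and Cyb561d2 (0.984), and Igfbp1 had 0.948. Those most like Insr were Patj (0.998), Susd1 (0.995) and Zfp275 (0.992). Insr and Irs2, both on the FOXO target list, ran opposite to one another, with r at −0.705.

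Some of these genes overlap others in the annotation, and whether the counting used strand is not given in the sources used here. Genes on the opposite strand lie across Insr (Gm16180 and Vmn2r-ps88), Irs1 (Gm9747), Irs2 (9530052E02Rik), Foxo1 (Gm20402) and Gsk3b (Gm27931). Genes on the same strand lie within Pik3r1 (Gm36638), Akt1 (Mir6939), Foxo1 (Gm38034) and Gsk3b (Gm25617). For these the share of reads that belongs to the named gene is uncertain, and Akt2 and Foxo3 overlap no annotated gene.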

How the data were processed

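Liver RNA of 6 mice was sequenced, 3 per group. The authors deposited 1 table of whole-number read counts per gene, with 1 column per mouse and no normalization. According to the study's methods, libraries were made with a NEBNext Ultra kit, sequenced on an Illumina HiSeq and aligned to mouse build 38 (mm10) with Bowtie 2 (version 2.2.3). Reads across exon junctions can be lost when the aligner does not split them. The counting program, its annotation and its use of strand are not given in the sources used here. Groups and replicate numbers came from the sample labels.

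Counts were scaled by TMM, filtered with filterByExpr (minimum count 10, minimum total 15) and tested by quasi-likelihood in edgeR 4.0.16 (glmQLFTest, R 4.3.3) without covariates, with Benjamini-Hochberg adjustment over 13377 genes. SEs came from the F statistic. CPM are means ± SD over 3 mice. Library totals of 18449986 to 21827619 gave 51 counts or more for each member in each library, and the spread between mice came on top of this counting error. Coordinates, lengths and GC content came from GENCODE release 21, in which 54409 of the 54532 gene identifiers were found, and promoters from RefSeq. GC content was set by the longest transcript. The GC offset was a loess curve (span 0.5) per library. Likeness was Pearson's r of log2 CPM with prior count 2. Ratios were tested by exact permutation. The fits were checked on simulated counts. These had no library that deviated by GC content, so the check did not cover that feature of the data.

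The 9 genes and all lists were chosen with earlier results of these data known. Named besides the 9 were the tested paralogs and, of each other list, the 3 genes with the smallest unadjusted p. Igfbp1 and Pck1 were named outside this rule, with their values known. Some genes that this rule selects are not reported here. Alternatives were RLE and upper-quartile scaling, no filter, DESeq2 1.42.0, voom with sample quality weights (limma 3.58.1), a replicate block, the GC offset alone and with the block, and leaving out each library. All 6 sample columns were used.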

Additional observations from a re-analysis of the deposited data

How the results depend on the processing

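No gene had an adjusted p under 0.05 in any of the 14 alternatives, and the smallest adjusted p were 0.114 without vehicle replicate 1 and 0.238 in DESeq2. Of 126 values of the 9 genes under the alternatives, 115 kept their sign and 4 passed at an unadjusted p under 0.05. Log2 fold changes that reversed were those of Insr with voom weights (0.106), Akt1 with the GC offset (−0.0912) and with GC offset and replicate block (−0.0843), Akt2 likewise (−0.249 and −0.190) and Foxo3 with voom weights (0.00976). When 1 library was left out, Insr ran from −0.276 to 0.104 (above 0 without vehicle replicate 2), Irs1 from −0.578 to 0.182 (above 0 without vehicle replicate 3 and without insulin replicate 1 or 2) and Irs2 from −0.533 to 0.0336 (above 0 without vehicle replicate 3). The cause of these reversals was not tested.

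Genes at an unadjusted p under 0.05 numbered 742 without the filter, where 23040 genes were tested, and 213 with voom weights, and 99 to 1349 when 1 library was left out, fewest without insulin replicate 1 and most without vehicle replicate 1. Of the 9 genes, 1 passed with the GC offset and 1 with the offset and the block (Irs2 in both), beside 3.55% and 2.51% of all genes, and 0 to 1 when a library was left out, beside 0.727% to 9.81%. Of the 83 tested genes of all other lists, 3 passed in the reported fit (2.86% of all genes), 1 with upper-quartile scaling (2.61%), 5 with the GC offset (3.55%) and 0 to 9 when a library was left out, with 9 in the fit without vehicle replicate 1, in which 9.81% of all genes passed. Groups did not overlap for 1 of the 9 genes with upper-quartile scaling and 1 with raw library totals (Akt2 in both), as for 12.5% and 14.4% of all genes, and for 0 to 2 when a library was left out, as for 17.9% to 31.2% of all genes.

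Other log2 fold changes that reversed were those of Igf1r with voom weights (0.138), Pik3r3 with GC offset and block (0.0583) and Gsk3a with the GC offset alone and with the block (−0.183 in both). With 1 library left out, the ranges that spanned 0 were −0.218 to 0.0714 for Igf1r, −0.574 to 0.155 for Pik3r3 and −0.705 to 0.0513 for Pik3ca, each highest without vehicle replicate 2. They were −1.40 to 0.0488 for Klf15 and −2.99 to 0.495 for Igfbp1, highest without vehicle replicate 3. Log2 ratio differences ran from −0.612 to 0.0249 for Akt2 to Akt1, −0.380 to 0.278 for Irs2 to Irs1 and −0.115 to 0.0457 for Insr to Igf1r. Same-numbered libraries did not deviate together (r of −0.04, 0.07 and 0.02), so the numbers were not taken as pairs. The replicate block gave 321 genes at an unadjusted p under 0.05 and 0 of the 9, and it reversed none of the 9.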
